A study of Saccharomyces cerevisiae with 12 samples.

Results

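The transcriptional response of the yeast strain MH34 to faster growth was measured between steady-state chemostat cultures held at dilution rates of 0.2/h and 0.1/h. In a chemostat the dilution rate sets the specific growth rate, because cells that divide more slowly than fresh medium enters are washed out. The 4 libraries compared were MH34 at 0.2/h, replicates 1 and 2, and MH34 at 0.1/h, replicates 1 and 2, out of 12 libraries of 3 strains in the series, and the genes described are the 6044 of 7126 that passed a filter on low counts. MH34 is 1 isolate obtained by UV mutagenesis and screening of AAC, and B184 was obtained in turn from MH34. AAC is the haploid MATa strain CEN.PK 530-1C, in which the coding sequence of TPI1, the gene for triose phosphate isomerase, is disrupted, carrying the plasmid pAlphaAmyCPOT. This multicopy plasmid expresses α-amylase behind the α factor leader from the promoter and terminator of TPI1, and is kept by the isomerase gene of Schizosaccharomyces pombe, so that all groups share the deletion and the plasmid. All cultures were carbon limited and fed glucose with an amino acid mixture. Ethanol was added to the bioreactors of MH34 at 0.1/h, and to those of B184 at 0.1/h, to stop oscillations, whereas no such addition is named for the cultures at 0.2/h or for AAC. In MH34, faster growth and the absence of added ethanol therefore cannot be told apart in any value below.

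Growth rate is known to partition the yeast transcriptome. Ribosomal protein genes and the genes that assemble ribosomes are driven by nutrient signaling through protein kinase A and TOR, and cells that divide faster devote more of their transcripts to them. Genes of the general stress response, of storage carbohydrates and of autophagy are activated when the same signaling is low. Ethanol and acetate are used through the glyoxylate cycle and gluconeogenesis, whose genes are repressed by glucose and activated by the factors Cat8 and Sip4. Secreted proteins such as α-amylase enter the endoplasmic reticulum (ER), where they are glycosylated, folded and fitted with disulfide bonds before they travel through the Golgi apparatus. When unfolded protein accumulates in the ER, the kinase Ire1 and the transcription factor Hac1 raise the genes of folding, a program called the unfolded protein response.

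The libraries of MH34 held 8084162 and 8782099 counts at 0.2/h and 9816482 and 9271397 counts at 0.1/h, within the 6040221 to 10785960 counts of the series. Values are given in CPM, the unit of read counts normalized to library size with edgeR's TMM factors, as replicate 1 and replicate 2 of each group. The replicates at 0.2/h were less alike than those at 0.1/h. Across genes, the log2 CPM of replicates correlated with r = 0.99 at 0.2/h and r = 0.997 at 0.1/h, and 44 genes with a mean of at least 5 CPM differed by 2-fold or more between replicates at 0.2/h, against 0 genes at 0.1/h. The 2 libraries of MH34 at 0.2/h correlated with those of B184 at 0.2/h at r = 0.992 to 0.994, at least as closely as with each other. Between MH34 and B184, only 1 gene of 6044 (0.0165%) differed at an edgeR adjusted p under 0.05 at 0.2/h (204 genes had an unadjusted p below that value). At 0.1/h, 3784 genes (62.6%) differed. The 1 gene was BPT1, which encodes a vacuolar transporter of bile pigments and was singled out after its values were seen. BPT1 had 108 and 118 CPM in MH34 at 0.2/h, against 65.05 and 61.6 CPM in B184 at 0.2/h (log2 fold change 0.83 ± 0.084, edgeR adjusted p = 0.0051). At 0.1/h, BPT1 had 135 and 129 CPM in MH34, against 60.7 and 64.01 CPM in B184. BPT1 was picked because it differed between these groups at 0.2/h, and its values at 0.1/h did not enter that choice. As it was the only gene past the threshold there, the counts hold little else to check the strain labels of the libraries at 0.2/h, and whether these labels are right was not tested. A mix-up of MH34 and B184 at 0.2/h would change every value given for MH34 at 0.2/h. In a principal component analysis of all 12 libraries, the first component, with 47% of the variance, set the 4 libraries of AAC and B184 at 0.1/h (−43.8 to −34.2) apart from the other 8, where MH34 at 0.1/h lay at 10.8 and 10.7 and the 6 libraries at 0.2/h lay between 19.6 and 21.9. The MATa genes MFA1, MFA2, STE2, STE6 and BAR1 held between 335 and 1196.5 CPM of the total counts in the 4 libraries. The MATα genes STE3, SAG1 and MF(ALPHA)2 held between 4.70 and 56.0, and MF(ALPHA)1 between 1084 and 1691, where the α factor leader of the plasmid can supply reads. TPI1 had 25.03 and 21.7 CPM at 0.2/h, against 14.99 and 14.8 CPM at 0.1/h, a remnant level for a gene that is disrupted in every strain (log2 fold change 0.65 ± 0.15, edgeR adjusted p = 0.011). TPI1 was not called without replicate 1 at 0.2/h or without replicate 1 or 2 at 0.1/h (edgeR adjusted p = 0.051 to 0.07).

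At 0.2/h against 0.1/h, 1619 of 6044 genes (26.8%) passed an adjusted p under 0.05 in edgeR's quasi-likelihood test, which is what "called" means below. Of these, 814 genes (13.5% of those tested) were higher and 805 genes (13.3%) were lower in MH34 at 0.2/h. The response was broad and mostly small. The median absolute log2 fold change was 0.199 over all genes, 178 called genes changed by 1 or more on the log2 scale, and of these 43 were higher and 135 lower. The values of the 2 groups did not overlap for any of the 1619 called genes, which 2 libraries against 2 make likely once a gene is called. The share of all 6044 genes without overlap is not given here, so this count adds no support to the calls. The same holds wherever the libraries of called genes are said below to lie apart. Counts are relative: they give each transcript's share of the sequenced RNA, and more or less total mRNA per cell could not be seen. With library totals in place of TMM factors, 1108 genes were called higher and 578 lower, so that 65.7% of calls were higher against 50.3% with TMM. The number called fell to 433 without replicate 1 at 0.1/h, 551 without replicate 2 at 0.1/h and 585 without replicate 2 at 0.2/h, and was 1393 without replicate 1 at 0.2/h. Of the 230 named genes that were called, 98 were also called with each of the 4 MH34 libraries left out in turn, and the exceptions among the genes described are given in each paragraph.

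The largest falls were in genes for using carbon sources other than glucose and for taking up sulfate. PCK1 encodes phosphoenolpyruvate carboxykinase, the committed enzyme of gluconeogenesis, and had 99.9 and 110.3 CPM at 0.2/h, against 2305 and 2568 CPM at 0.1/h (log2 fold change −4.53 ± 0.20, edgeR adjusted p = 2.8e-06). ICL1 encodes isocitrate lyase of the glyoxylate cycle and had 179 and 237 CPM at 0.2/h, against 2476.0 and 2539 CPM at 0.1/h (log2 fold change −3.59 ± 0.23, edgeR adjusted p = 3e-05). The sulfate permease gene SUL2 had 11.8 and 20.1 CPM at 0.2/h, against 121 and 141 CPM at 0.1/h (log2 fold change −3.02 ± 0.19, edgeR adjusted p = 6.7e-06). For all 3 genes, both libraries at 0.2/h lay several-fold below both libraries at 0.1/h. DPA10 (YLR307C-A), on chromosome XII, had 50.1 and 56.97 CPM at 0.2/h, against 433 and 461 CPM at 0.1/h (log2 fold change −3.06 ± 0.17, edgeR adjusted p = 4.8e-06), and its close neighbor CDA2, a chitin deacetylase of the spore wall, had 1.62 and 2.65 CPM at 0.2/h, against 18.1 and 15.6 CPM at 0.1/h, with a log2 fold change of −2.96 ± 0.37. FLO9, a flocculin of a family of near-identical genes whose reads are uncertain, had 2.62 and 1.65 CPM at 0.2/h, against 14.99 and 18.4 CPM at 0.1/h. AGP3, a low-affinity amino acid permease, had 6.72 and 9.48 CPM at 0.2/h, against 66.5 and 61.4 CPM at 0.1/h. Their log2 fold changes were −2.97 ± 0.36 and −2.97 ± 0.18. The largest rise was that of PHO84, the high-affinity phosphate transporter, with 431.5 and 347.0 CPM at 0.2/h, against 63.7 and 84.4 CPM at 0.1/h (log2 fold change 2.39 ± 0.21, edgeR adjusted p = 0.00018). FIG1, a membrane protein of mating cells, had 39.9 and 15.1 CPM at 0.2/h, against 5.91 and 5.61 CPM at 0.1/h (log2 fold change 2.24 ± 0.70, edgeR adjusted p = 0.049), and its replicates at 0.2/h were far apart. ADH6, an alcohol dehydrogenase that uses NADPH, had 67.0 and 117 CPM at 0.2/h, against 23.8 and 21.6 CPM at 0.1/h (log2 fold change 2.03 ± 0.46, edgeR adjusted p = 0.019). GIT1, a permease for glycerophosphoinositol, had 293 and 234 CPM at 0.2/h, against 85.2 and 71.6 CPM at 0.1/h, with a log2 fold change of 1.75 ± 0.27. Further rises were those of MRS3, a mitochondrial iron carrier (6.85 and 12.9 CPM at 0.2/h, against 3.696 and 4.49 CPM at 0.1/h), and of its neighbor DPI8 (YJL133C-A, 54.5 and 76.7 CPM at 0.2/h, against 30.4 and 30.5 CPM at 0.1/h), with log2 fold changes of 1.28 ± 0.38 and 1.11 ± 0.16. The small nucleolar RNAs SNR44 and SNR18 were also among the 10 largest rises, but they lie inside RPS22B and EFB1, so their reads cannot be assigned with certainty. FIG1 was not called without replicate 1 at 0.2/h or without replicate 1 or 2 at 0.1/h (edgeR adjusted p = 0.19). ADH6 and MRS3 were not called without replicate 2 at 0.2/h or without replicate 1 or 2 at 0.1/h (edgeR adjusted p = 0.1 to 0.26). The log2 fold change of FIG1 was 1.39 without replicate 1 at 0.2/h.

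**Figure D1:**
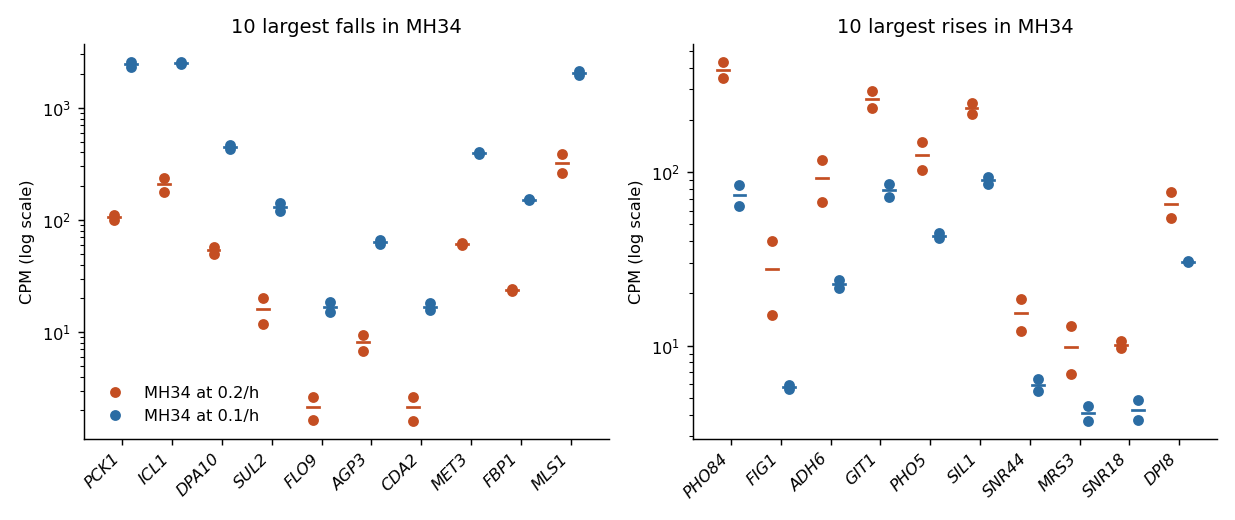
CPM on a log axis for the 10 largest falls (left) and 10 largest rises (right) in MH34, with 1 point per library and a bar at the mean of the 2 replicates, at 0.2/h (orange) beside 0.1/h (blue). PCK1 lies at 99.9 and 110.3 CPM at 0.2/h and at 2305 and 2568 CPM at 0.1/h, and the points at 0.2/h spread most for FIG1.

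As a group, gluconeogenesis and the glyoxylate cycle had 12 of 20 members (60%) called lower and 0 called higher in MH34 at 0.2/h. Over all genes 13.3% were called lower and 13.5% higher. The median log2 fold change of the list was −0.80, against −0.008 over all genes. The 20 genes held 0.515 and 0.485% of the counts at 0.2/h, against 1.47 and 1.44% at 0.1/h. MLS1, the malate synthase of the glyoxylate cycle, had 386 and 264 CPM at 0.2/h, against 1972 and 2133.0 CPM at 0.1/h (log2 fold change −2.66 ± 0.26, edgeR adjusted p = 0.00048). FBP1, fructose-1,6-bisphosphatase, which opposes glycolysis, had 23.3 and 24.1 CPM at 0.2/h, against 149 and 155 CPM at 0.1/h (log2 fold change −2.68 ± 0.18, edgeR adjusted p = 2e-05). CIT2, the peroxisomal citrate synthase and the member with the highest FPKM at 0.2/h, had 1363 and 1349 CPM at 0.2/h, against 3868 and 3249.5 CPM at 0.1/h (log2 fold change −1.39 ± 0.17, edgeR adjusted p = 0.00055). In each of these 3 genes the 2 libraries at 0.1/h were close to each other and both lay far above those at 0.2/h. SFC1, the mitochondrial succinate-fumarate carrier, had 87.7 and 85.7 CPM at 0.2/h, against 472 and 500.0 CPM at 0.1/h. MDH2, the cytosolic malate dehydrogenase, had 171 and 138 CPM at 0.2/h, against 384 and 371 CPM at 0.1/h. Both were called lower and were chosen after their values were seen, and their log2 fold changes were −2.49 ± 0.33 and −1.29 ± 0.16. The carnitine shuttle, which moves acetyl units into mitochondria, was also called lower in part. Among called genes for fatty acid oxidation and the carnitine shuttle, its genes CRC1, YAT1, YAT2 and CAT2 had the lowest log2 fold changes. Of the 21 members of that list, 8 (38.1%) were called lower and 0 higher (median −0.27). CRC1, the mitochondrial carnitine carrier, had 61.6 and 58.1 CPM at 0.2/h, against 331 and 291 CPM at 0.1/h (log2 fold change −2.38 ± 0.18, edgeR adjusted p = 5.7e-05). YAT2, a carnitine acetyltransferase of the cytosol, had 224 and 218 CPM at 0.2/h, against 662 and 602 CPM at 0.1/h (log2 fold change −1.51 ± 0.10, edgeR adjusted p = 7.8e-06). CAT2, a carnitine acetyltransferase of mitochondria and peroxisomes, had 109.8 and 96.1 CPM at 0.2/h, against 244 and 217 CPM at 0.1/h (log2 fold change −1.17 ± 0.26, edgeR adjusted p = 0.017). CAT2 was not called without replicate 1 or 2 at 0.2/h or without replicate 1 or 2 at 0.1/h (edgeR adjusted p = 0.051 to 0.11). CRC1, YAT1 and YAT2 were called in each of these fits. The number of gluconeogenic and glyoxylate genes called lower was 13 and 9 without replicates 1 and 2 at 0.2/h in turn, and 9 and 10 without replicates 1 and 2 at 0.1/h. In the carnitine and fatty acid list it was 5 and 4 without replicates 1 and 2 at 0.2/h in turn, and 4 and 4 without replicates 1 and 2 at 0.1/h.

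The upstream regions of the 4 genes of gluconeogenesis and the glyoxylate cycle that fell most are shown because a match to the carbon source-responsive element (CSRE), to which Cat8 and Sip4 bind, lay in each. The window searched was 101 to 600 bases before the start codon, read from the RefSeq R64 genome, on both strands, with the loose pattern CCNTNNNNCCG. Overlap of its matches with those of other patterns was not counted. Of the 20 genes of the list, 11 (55%) held a match, against 462 of all 5706 windows (8.1%). Members with a match include SIP4, which encodes a factor that binds this element, and ERT1, REG2 and AGX1. The members were chosen with earlier results of these data known, so the share is not a test of the element. Each line below gives 120 bases 5′ to 3′ along the gene's strand, with matches in capitals. They stand for chrXI:630735-630854 (+ strand) for PCK1, chrV:287248-287367 (− strand) for ICL1, chrXIV:405803-405922 (+ strand) for MLS1 and chrXII:875232-875351 (− strand) for FBP1. PCK1 had 3 matches in its window, of which 1 is in the stretch shown, MLS1 had 2, and ICL1 and FBP1 had 1 each. A match describes the letters only and is not evidence that a factor was bound.
PCK1: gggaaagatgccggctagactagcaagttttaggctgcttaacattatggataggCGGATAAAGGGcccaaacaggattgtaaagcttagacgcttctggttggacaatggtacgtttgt
ICL1: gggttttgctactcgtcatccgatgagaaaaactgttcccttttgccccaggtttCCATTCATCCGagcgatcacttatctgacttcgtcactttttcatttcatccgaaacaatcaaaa
MLS1: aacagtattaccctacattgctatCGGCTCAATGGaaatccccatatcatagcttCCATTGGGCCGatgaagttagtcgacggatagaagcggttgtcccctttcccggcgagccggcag
FBP1: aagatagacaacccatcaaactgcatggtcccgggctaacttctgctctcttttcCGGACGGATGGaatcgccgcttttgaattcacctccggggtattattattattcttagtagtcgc

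Sulfate assimilation and methionine synthesis was the list with the largest share of called members, 20 of 22 (90.9%) lower and 0 higher. Over all genes these shares were 13.3% and 13.5%. The list also had the lowest median log2 fold change, −1.76. Together its genes held 0.441 and 0.423% of the counts at 0.2/h, against 0.903 and 0.917% at 0.1/h. The path takes sulfate up, activates it, reduces it to sulfide and joins it to homoserine carbon to give homocysteine and methionine, and genes of each of these steps were called lower. Besides SUL2, the second sulfate permease gene SUL1 had 23.04 and 23.8 CPM at 0.2/h, against 134 and 109.0 CPM at 0.1/h (log2 fold change −2.38 ± 0.31, edgeR adjusted p = 0.0021). MET3, ATP sulfurylase, which activates sulfate, had 61.6 and 59.3 CPM at 0.2/h, against 405 and 391.0 CPM at 0.1/h (log2 fold change −2.72 ± 0.067, edgeR adjusted p = 2.4e-09). MET2, homoserine O-acetyltransferase, which makes the acceptor of sulfide, had 40.7 and 29.2 CPM at 0.2/h, against 207 and 204.5 CPM at 0.1/h (log2 fold change −2.56 ± 0.13, edgeR adjusted p = 6.5e-07). MET17, which joins sulfide to that acceptor, had 239.0 and 147.0 CPM at 0.2/h, against 1014 and 1033 CPM at 0.1/h (log2 fold change −2.41 ± 0.18, edgeR adjusted p = 5.1e-05). For each of these genes both libraries at 0.1/h lay far above both at 0.2/h. MMP1, the transporter of S-methylmethionine, had 25.3 and 18.9 CPM at 0.2/h, against 132 and 125 CPM at 0.1/h (log2 fold change −2.54 ± 0.12, edgeR adjusted p = 5.2e-07). The regulators MET28 (21.6 and 15.5 CPM at 0.2/h, against 63.9 and 65.3 CPM at 0.1/h) and MET32 (29.1 and 18.9 CPM at 0.2/h, against 77.8 and 75.2 CPM at 0.1/h) were also called lower, with log2 fold changes of −1.81 ± 0.19 and −1.68 ± 0.16. Of the 2 members that were not called, MET4, the activator of the path, had 177 and 194 CPM at 0.2/h, against 180.3 and 176 CPM at 0.1/h (edgeR adjusted p = 0.65). SAM2, an S-adenosylmethionine synthetase with the highest FPKM of the list at 0.2/h, had 739 and 879 CPM at 0.2/h, against 1171 and 1079 CPM at 0.1/h (edgeR adjusted p = 0.067). SUL1, MET17, MET28, MET32 and MET4 were chosen after their values were seen. Outside the list, JLP1, a dioxygenase that releases sulfite from sulfonates, was chosen in the same way and had 5.11 and 14.6 CPM at 0.2/h, against 31.04 and 35.8 CPM at 0.1/h (log2 fold change −1.74 ± 0.36, edgeR adjusted p = 0.0086), with a log2 fold change of −2.71 without replicate 2 at 0.2/h. JLP1 was not called without replicate 2 at 0.1/h (edgeR adjusted p = 0.057). The number called lower in the list was 18 and 19 without replicates 1 and 2 at 0.2/h in turn, and 18 and 17 without replicates 1 and 2 at 0.1/h.

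Stretches upstream of SUL2, MET3 and MET2 are shown because they hold the 6 letters CACGTG, the core that the factor Cbf1 binds in many genes of sulfur metabolism. This pattern was chosen after the list's values were seen. In the same window and on both strands, 17 of 22 genes of the list (77.3%) held it, against 387 of 5706 windows (6.78%). Overlap with the other patterns searched was not counted. Each line gives 120 bases 5′ to 3′ along the gene's strand with the core in capitals, from chrXII:323179-323298 (+ strand) for SUL2, chrX:455822-455941 (+ strand) for MET3 and chrXIV:116939-117058 (+ strand) for MET2 of the R64 build. SUL2 and MET3 had 2 matches each, both shown, and MET2 had 2, of which 1 is shown.
SUL2: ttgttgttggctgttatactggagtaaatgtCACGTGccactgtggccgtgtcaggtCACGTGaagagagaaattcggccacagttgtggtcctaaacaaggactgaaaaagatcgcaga
MET3: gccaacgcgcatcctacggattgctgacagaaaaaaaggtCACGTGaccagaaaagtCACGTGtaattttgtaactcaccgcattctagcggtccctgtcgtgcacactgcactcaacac
MET2: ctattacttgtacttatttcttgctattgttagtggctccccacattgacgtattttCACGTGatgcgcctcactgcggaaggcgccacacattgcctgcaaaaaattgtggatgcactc

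Most genes of the ribosome rose, each by a small amount. Of 137 cytosolic ribosomal protein genes, 110 (80.3%) were called higher and 0 lower, against 13.5% and 13.3% of all genes. The median log2 fold change was 0.40, and 135 of these ribosomal protein genes had a positive sign. Their share was 9.27 and 9.79% of the counts at 0.2/h, against 6.72 and 6.99% at 0.1/h, and the 2 ranges did not overlap. Among the largest, RPL43B, of the large subunit, had 287 and 332 CPM at 0.2/h, against 167 and 163 CPM at 0.1/h (log2 fold change 0.91 ± 0.10, edgeR adjusted p = 0.00029). RPS26B, of the small subunit, had 543 and 578 CPM at 0.2/h, against 305 and 344 CPM at 0.1/h (log2 fold change 0.79 ± 0.12, edgeR adjusted p = 0.0019). RPL9A had 437.0 and 446 CPM at 0.2/h, against 252 and 276 CPM at 0.1/h (log2 fold change 0.74 ± 0.083, edgeR adjusted p = 0.00028). RPL12A had 413.5 and 443 CPM at 0.2/h, against 259 and 268 CPM at 0.1/h, with a log2 fold change of 0.70 ± 0.089. The member with the highest FPKM at 0.2/h, RPL41B, was not called, with 431 and 443 CPM at 0.2/h, against 462 and 437 CPM at 0.1/h (edgeR adjusted p = 0.8). Most of these genes exist as near-identical pairs, and how reads shared by a pair were counted is not given in the sources used here, so the split within a pair is uncertain. Leaving out single libraries changed the number of calls far more than the median. It was 87 and 38 without replicates 1 and 2 at 0.2/h in turn, and 18 and 40 without replicates 1 and 2 at 0.1/h. The core CCCATACA bound by Rap1 in promoters of ribosomal protein genes was in 29 of the 137 windows (21.2%), against 119 of 5706 (2.09%), on either strand. Overlap with the other patterns was not counted.

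Ribosome assembly followed the ribosome itself. Of 159 ribosome biogenesis genes, which encode the processing and export machinery of ribosomal RNA, 51 (32.1%) were called higher and 1 (0.629%) lower. Over all genes these shares were 13.5% and 13.3%. The median of the list was 0.27, with 145 positive signs. UTP9, a subunit of the complex that starts processing of the small subunit RNA, had 92.9 and 115 CPM at 0.2/h, against 61.9 and 66.8 CPM at 0.1/h (log2 fold change 0.69 ± 0.12, edgeR adjusted p = 0.003). NOP58, a core protein of C/D box small nucleolar RNA particles, had 185 and 196 CPM at 0.2/h, against 118 and 127 CPM at 0.1/h (log2 fold change 0.64 ± 0.10, edgeR adjusted p = 0.0018). RRP9, which binds the U3 small nucleolar RNA, had 98.1 and 107 CPM at 0.2/h, against 64.2 and 64.9 CPM at 0.1/h, with a log2 fold change of 0.67 ± 0.10. UTP14, of the small subunit processome, had 111 and 126 CPM at 0.2/h, against 73.1 and 78.9 CPM at 0.1/h, with 0.64 ± 0.15. The member called lower was REA1, the large ATPase that matures the large subunit, with 113 and 114.5 CPM at 0.2/h, against 133 and 146 CPM at 0.1/h (log2 fold change −0.29 ± 0.065, edgeR adjusted p = 0.01), named after its values were seen. NOP10, of the H/ACA particles and the highest in FPKM at 0.2/h, had 175.5 and 182 CPM at 0.2/h, against 175 and 173 CPM at 0.1/h (edgeR adjusted p = 0.82). RNA polymerases I and III transcribe ribosomal and transfer RNA. Among their subunits and initiation factors, 8 of 27 (29.6%) were called higher and 0 lower (median 0.19). RPA49, a subunit of polymerase I, had 100.1 and 113 CPM at 0.2/h, against 71.9 and 78.4 CPM at 0.1/h, with a log2 fold change of 0.51 ± 0.13. UTP14 and RPA49 were not called without replicate 2 at 0.2/h or without replicate 1 or 2 at 0.1/h (edgeR adjusted p = 0.065 to 0.13). REA1 was not called without replicate 2 at 0.2/h or without replicate 2 at 0.1/h (edgeR adjusted p = 0.052 to 0.099). The number of biogenesis genes called higher was 39 and 8 without replicates 1 and 2 at 0.2/h in turn, and 5 and 15 without replicates 1 and 2 at 0.1/h. In the polymerase list it was 7 and 0 without replicates 1 and 2 at 0.2/h in turn, and 0 and 1 without replicates 1 and 2 at 0.1/h. The PAC letters GATGAG were in 105 of the 159 windows (66%), against 1567 of 5706 (27.5%), and the RRPE letters AAAATTTT in 109 of 159 (68.6%), against 684 of 5706 (12%), on either strand and not overlapping each other's letters.

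Among translation initiation and elongation factors, 18 of 38 (47.4%) were called higher and 1 (2.63%) lower (median 0.26). Over all genes these shares were 13.5% and 13.3%. TEF4, the γ subunit of elongation factor 1, had 1005.0 and 1052 CPM at 0.2/h, against 530.1 and 611 CPM at 0.1/h (log2 fold change 0.85 ± 0.15, edgeR adjusted p = 0.0034). TIF4631, which encodes the initiation factor eIF4G, had 242.5 and 266 CPM at 0.2/h, against 179 and 188 CPM at 0.1/h. PRT1, a subunit of eIF3, had 275 and 269 CPM at 0.2/h, against 193 and 203 CPM at 0.1/h. Both rose, with log2 fold changes of 0.47 ± 0.10 and 0.46 ± 0.10. CAM1, the other gene for the γ subunit of elongation factor 1, was the member called lower, with 439.6 and 337 CPM at 0.2/h, against 506 and 547.5 CPM at 0.1/h (log2 fold change −0.44 ± 0.12, edgeR adjusted p = 0.025). The 2 genes for the same subunit thus moved in opposite directions. HYP2, which encodes eIF5A and had the highest FPKM of the list at 0.2/h, had 1671 and 1708 CPM at 0.2/h, against 1687 and 1713.5 CPM at 0.1/h (edgeR adjusted p = 0.96). Of 21 cytosolic tRNA synthetases, 8 (38.1%) were called higher and 0 lower (median 0.25). SES1, the seryl-tRNA synthetase, had 334 and 341 CPM at 0.2/h, against 242 and 239.5 CPM at 0.1/h (log2 fold change 0.49 ± 0.076, edgeR adjusted p = 0.0017). Mitochondrial ribosomal proteins had 23 of 72 (31.9%) called higher and 0 lower (median 0.20). MRPL44, of the large subunit, had 105.5 and 115 CPM at 0.2/h, against 78.2 and 74.2 CPM at 0.1/h (log2 fold change 0.53 ± 0.12, edgeR adjusted p = 0.011). MRPL31, of the same subunit and the member with the highest FPKM at 0.2/h, had 241.5 and 234.5 CPM at 0.2/h, against 166 and 174 CPM at 0.1/h, with a log2 fold change of 0.48 ± 0.092. TIF4631, CAM1 and MRPL44 were not called without replicate 2 at 0.2/h or without replicate 1 or 2 at 0.1/h (edgeR adjusted p = 0.051 to 0.19). PRT1 was not called without replicate 1 or 2 at 0.1/h (edgeR adjusted p = 0.051 to 0.083). MRPL31 was not called without replicate 1 at 0.1/h (edgeR adjusted p = 0.056). Translation factors called higher numbered 11 and 4 without replicates 1 and 2 at 0.2/h in turn, and 1 and 3 without replicates 1 and 2 at 0.1/h. For tRNA synthetases the number was 5 and 3 without replicates 1 and 2 at 0.2/h in turn, and 1 and 1 without replicates 1 and 2 at 0.1/h. For mitochondrial ribosomal proteins it was 7 and 13 without replicates 1 and 2 at 0.2/h in turn, and 0 and 4 without replicates 1 and 2 at 0.1/h.

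**Figure D2:**
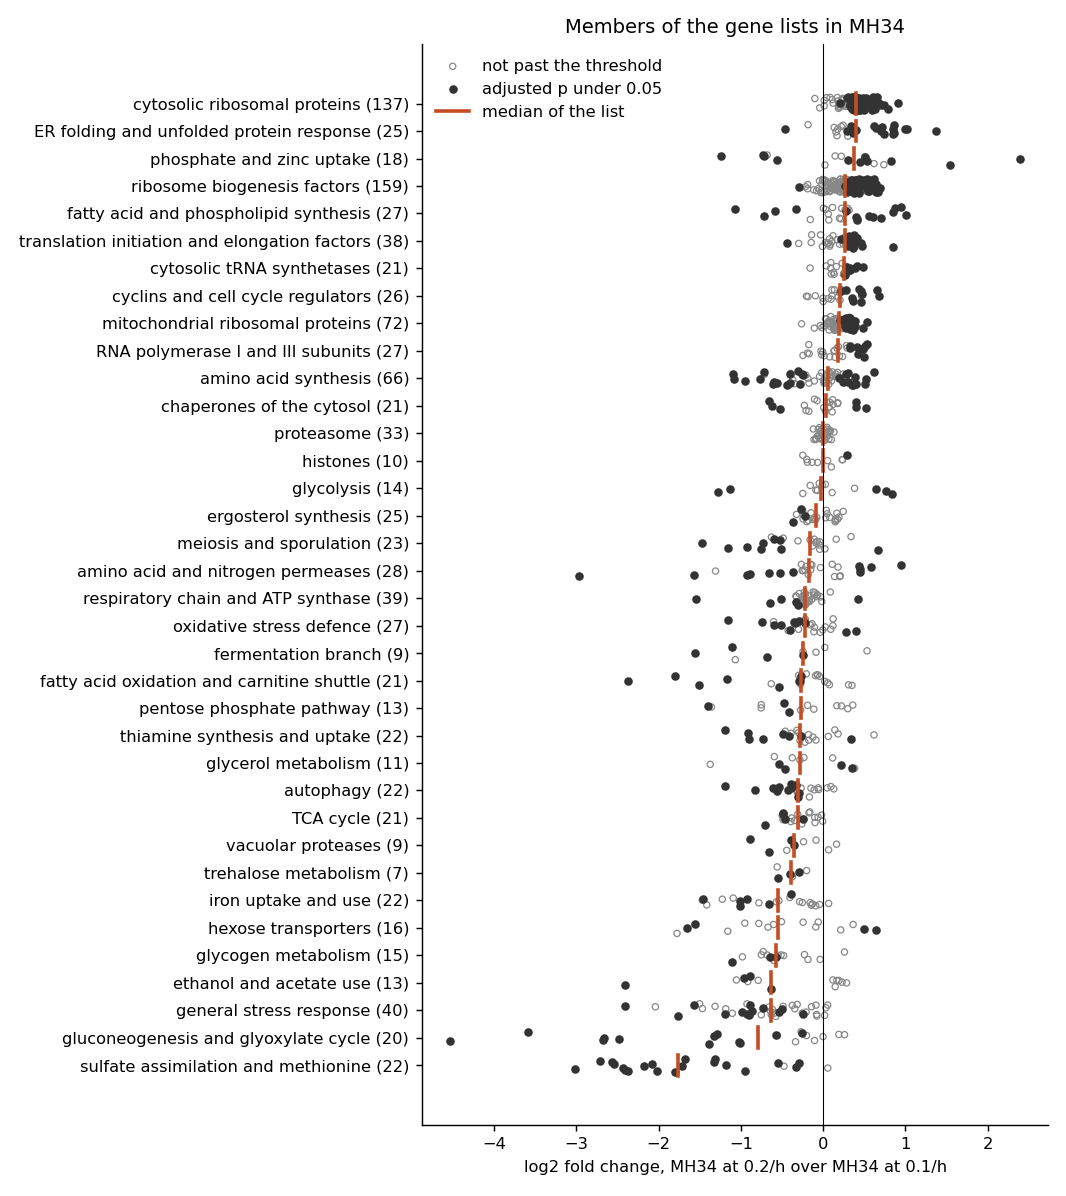
Log2 fold change of MH34 at 0.2/h over 0.1/h for the members of 36 gene lists, with 1 circle per gene (filled where the adjusted p was under 0.05) and an orange bar at the median of the list, and the number of genes tested in brackets. Sulfate assimilation (median −1.76) and gluconeogenesis and the glyoxylate cycle (median −0.80) lie at the low end, and cytosolic ribosomal proteins (median 0.40) and ER folding (median 0.40) at the high end.

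In the secretory pathway that carries α-amylase, genes of entry into the ER and of folding there were called higher. In the list of ER folding and the unfolded protein response, 16 of 25 genes (64%) were called higher and 1 (4%) lower. Over all genes these shares were 13.5% and 13.3%. The median log2 fold change of the list was 0.40. SIL1, the nucleotide exchange factor of the ER chaperone BiP, had 215 and 251.5 CPM at 0.2/h, against 85.8 and 93.9 CPM at 0.1/h (log2 fold change 1.38 ± 0.11, edgeR adjusted p = 2e-05). KAR2, BiP itself, had 1964 and 2481 CPM at 0.2/h, against 1084.5 and 1137.5 CPM at 0.1/h (log2 fold change 1.0 ± 0.15, edgeR adjusted p = 0.0017). ERO1, the oxidase that supplies disulfide bonds, had 324.5 and 383 CPM at 0.2/h, against 169.7 and 178 CPM at 0.1/h (log2 fold change 1.03 ± 0.12, edgeR adjusted p = 0.0004). MPD1, a member of the protein disulfide isomerase family, had 115 and 134.5 CPM at 0.2/h, against 67.4 and 69.7 CPM at 0.1/h, with a log2 fold change of 0.86 ± 0.09. In all 4 genes replicate 2 at 0.2/h was the highest library. ERV2, another ER thiol oxidase named after its values were seen, was the member called lower, with 94.03 and 74.5 CPM at 0.2/h, against 112 and 121 CPM at 0.1/h (log2 fold change −0.47 ± 0.13, edgeR adjusted p = 0.021). INO1, inositol 3-phosphate synthase, a target of the response with the highest FPKM of the list at 0.2/h, had 3503 and 5618.5 CPM at 0.2/h, against 4279 and 3130.1 CPM at 0.1/h (edgeR adjusted p = 0.52). In the 10 genes of the study's folding subsystem, 7 (70%) were called higher and 1 (10%) lower (median 0.72). The subsystem shares members with the list above, with the same highest and lowest log2 fold changes (1.38 and −0.47). Its counts are therefore not separate from those of the list. Together the 10 genes held 0.443 and 0.558% of the counts at 0.2/h, against 0.286 and 0.294% at 0.1/h. PDI1, the main protein disulfide isomerase, had 2755 and 3402 CPM at 0.2/h, against 1849.5 and 1924.5 CPM at 0.1/h (log2 fold change 0.71 ± 0.13, edgeR adjusted p = 0.0041). LHS1, a second nucleotide exchange factor of BiP, had 457 and 543 CPM at 0.2/h, against 276 and 275 CPM at 0.1/h, with a log2 fold change of 0.86 ± 0.11. JEM1, a J-domain partner of BiP, had 160.4 and 191 CPM at 0.2/h, against 95.3 and 100 CPM at 0.1/h, with 0.85 ± 0.10. The letters CAGCGTG, the core bound by Hac1 and chosen after the values were seen, were in 1 of the 25 windows (4%), that of KAR2, against 155 of 5706 (2.72%), on either strand. ERV2 was not called without replicate 2 at 0.2/h or without replicate 1 or 2 at 0.1/h (edgeR adjusted p = 0.076 to 0.17). PDI1 was not called without replicate 1 at 0.1/h (edgeR adjusted p = 0.051). The number of ER folding genes called higher was 17 and 11 without replicates 1 and 2 at 0.2/h in turn, and 11 and 11 without replicates 1 and 2 at 0.1/h. In the subsystem it was 8 and 6 without replicates 1 and 2 at 0.2/h in turn, and 4 and 6 without replicates 1 and 2 at 0.1/h.

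Translocation into the ER had 10 of 17 genes (58.8%) called higher and 0 lower, and all 17 had a positive sign (median 0.28). Over all genes 13.5% were called higher and 13.3% lower. SEC63, which couples BiP to the translocon, had 283 and 346 CPM at 0.2/h, against 178 and 179.8 CPM at 0.1/h (log2 fold change 0.81 ± 0.12, edgeR adjusted p = 0.0013). SEC61, the translocon channel, had 428 and 493.0 CPM at 0.2/h, against 289.9 and 313.0 CPM at 0.1/h (log2 fold change 0.61 ± 0.10, edgeR adjusted p = 0.0017). In ER glycosylation, 24 of 30 genes (80%) were called higher and 0 lower, with a median of 0.35. PMT2 and PMT1, the mannosyltransferases that start O-glycosylation, had 511 and 569 CPM at 0.2/h, against 279.5 and 304 CPM at 0.1/h for PMT2 and 415 and 486.5 CPM at 0.2/h, against 272 and 289.5 CPM at 0.1/h for PMT1. Their log2 fold changes were 0.89 ± 0.10 and 0.68 ± 0.094. DPM1, which makes the mannose donor dolichol phosphate mannose, had 195.0 and 179.6 CPM at 0.2/h, against 114.0 and 125 CPM at 0.1/h (log2 fold change 0.65 ± 0.08, edgeR adjusted p = 0.00043). ALG12, a mannosyltransferase of the N-glycan precursor, had 177 and 186 CPM at 0.2/h, against 124 and 131 CPM at 0.1/h (log2 fold change 0.51 ± 0.072, edgeR adjusted p = 0.0011). ALG11, an earlier mannosyltransferase, had 123 and 129.9 CPM at 0.2/h, against 102.0 and 106 CPM at 0.1/h (log2 fold change 0.28 ± 0.068, edgeR adjusted p = 0.013). OST1, a subunit of the oligosaccharyltransferase, had 359 and 416 CPM at 0.2/h, against 304 and 306 CPM at 0.1/h (log2 fold change 0.35 ± 0.086, edgeR adjusted p = 0.015). OST4, a small subunit of the same enzyme with the highest FPKM of the list at 0.2/h, had 95.2 and 85.2 CPM at 0.2/h, against 87.5 and 93.4 CPM at 0.1/h (edgeR adjusted p = 0.98). The 2 glucosidases that trim N-glycans before folding differed in their calls. CWH41, glucosidase I, had 152 and 173 CPM at 0.2/h, against 128 and 124 CPM at 0.1/h (log2 fold change 0.36 ± 0.091, edgeR adjusted p = 0.015). ROT2, the catalytic subunit of glucosidase II, had 111 and 131 CPM at 0.2/h, against 111 and 103 CPM at 0.1/h, with a log2 fold change of 0.17 ± 0.089 and an edgeR adjusted p of 0.17. Whether these 2 genes differed from each other was not tested. ALG11, OST1 and CWH41 were not called without replicate 2 at 0.2/h or without replicate 1 or 2 at 0.1/h (edgeR adjusted p = 0.061 to 0.13). Glycosylation genes called higher numbered 18 and 9 without replicates 1 and 2 at 0.2/h in turn, and 9 and 9 without replicates 1 and 2 at 0.1/h. For translocation genes it was 10 and 4 without replicates 1 and 2 at 0.2/h in turn, and 2 and 4 without replicates 1 and 2 at 0.1/h.

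Beyond the ER, genes of the Golgi and of traffic to it were also called higher in part, and sorting genes were mostly not called. Golgi processing had 7 of 11 genes called higher and 0 lower (median 0.31), and trafficking between ER and Golgi 11 of 32 higher and 0 lower (median 0.16). KTR3, a mannosyltransferase of the Golgi, had 126 and 134 CPM at 0.2/h, against 96.6 and 92.1 CPM at 0.1/h (log2 fold change 0.46 ± 0.067, edgeR adjusted p = 0.0011). ERD2, the receptor that returns ER residents such as BiP from the Golgi, had 202 and 243 CPM at 0.2/h, against 149 and 155.5 CPM at 0.1/h (log2 fold change 0.55 ± 0.10, edgeR adjusted p = 0.0036). ERV29, a receptor that packs soluble cargo into vesicles bound for the Golgi, had 325 and 365 CPM at 0.2/h, against 247.0 and 242 CPM at 0.1/h (log2 fold change 0.50 ± 0.073, edgeR adjusted p = 0.0013). In sorting, 1 of 25 genes was called higher and 6 lower (median −0.044), against 13.5% higher and 13.3% lower among all genes. GGA1, an adaptor for traffic from the Golgi to the vacuole, had 89.7 and 88.6 CPM at 0.2/h, against 126 and 126 CPM at 0.1/h (log2 fold change −0.50 ± 0.12, edgeR adjusted p = 0.013). PEP12, the syntaxin of the late endosome, had 102 and 126 CPM at 0.2/h, against 157 and 160.1 CPM at 0.1/h (log2 fold change −0.48 ± 0.13, edgeR adjusted p = 0.024). SEC4, the GTPase of secretory vesicles with the highest FPKM of that list at 0.2/h, had 248 and 249.9 CPM at 0.2/h, against 294 and 290.3 CPM at 0.1/h (log2 fold change −0.23 ± 0.073, edgeR adjusted p = 0.039). ER-associated degradation had 4 of 17 genes called higher, KAR2 among them, and 2 (11.8%) lower (median 0.16), the second share being under the 13.3% of all genes. GPI anchoring had 5 of 20 (25%) called higher and 0 lower (median 0.21), with GWT1, an acyltransferase of anchor synthesis, at 112 and 125 CPM at 0.2/h, against 72.01 and 68.6 CPM at 0.1/h (log2 fold change 0.75 ± 0.086, edgeR adjusted p = 0.00031). SEC4 was not called with library totals, with DESeq2 size factors or by DESeq2. GGA1 was not called without replicate 2 at 0.2/h or without replicate 1 or 2 at 0.1/h (edgeR adjusted p = 0.07 to 0.075). PEP12 was not called without replicate 1 at 0.2/h or without replicate 1 or 2 at 0.1/h (edgeR adjusted p = 0.1 to 0.12). SEC4 was not called without replicate 1 or 2 at 0.2/h or without replicate 1 or 2 at 0.1/h (edgeR adjusted p = 0.11 to 0.18). Golgi genes called higher numbered 7 and 2 without replicates 1 and 2 at 0.2/h in turn, and 3 and 2 without replicates 1 and 2 at 0.1/h. In trafficking it was 8 and 3 without replicates 1 and 2 at 0.2/h in turn, and 2 and 3 without replicates 1 and 2 at 0.1/h. Sorting genes called lower numbered 4 and 2 without replicates 1 and 2 at 0.2/h in turn, and 1 and 1 without replicates 1 and 2 at 0.1/h. In ER-associated degradation, 4, 1, 2 and 2 were called higher and 1, 0, 0 and 0 lower with the libraries left out in this order, and the lowest median was 0.079. In GPI anchoring 6, 1, 1 and 1 were called higher.

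**Figure D3:**
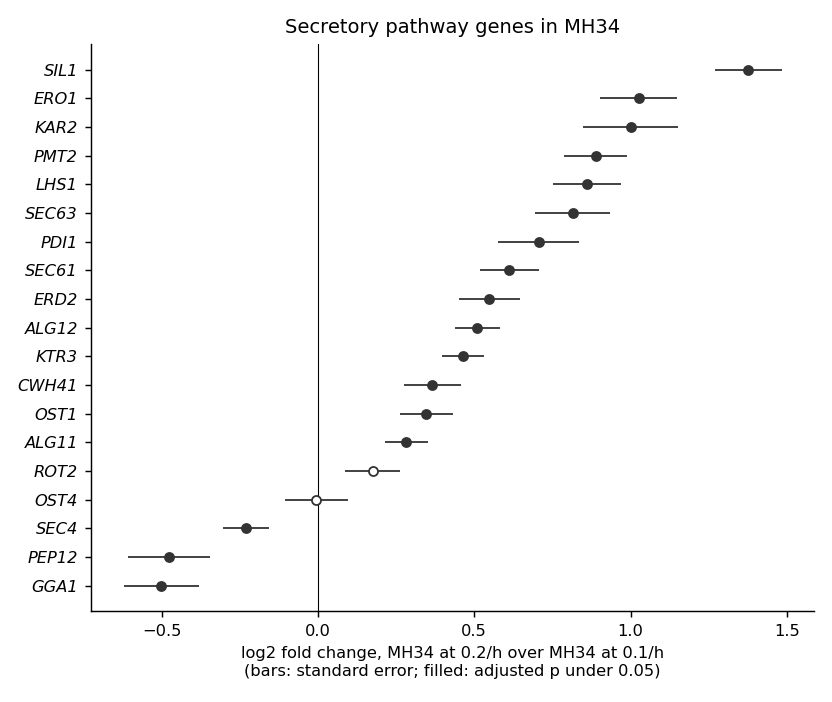
Log2 fold change of MH34 at 0.2/h over 0.1/h for 19 secretory pathway genes, with bars for the standard error and filled circles where the adjusted p was under 0.05. The chaperone and oxidation genes SIL1, ERO1 and KAR2 lie at or above 1, OST4 lies at 0, and the sorting genes SEC4, PEP12 and GGA1 below 0.

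The summed level of glycolysis was alike at both rates, while paralogs of its enzymes moved in opposite directions. The 14 genes held 4.09 and 3.74% of the counts at 0.2/h, against 3.91 and 3.83% at 0.1/h, with 3 called higher and 2 lower. TDH1, a glyceraldehyde-3-phosphate dehydrogenase, had 1810.0 and 949.8 CPM at 0.2/h, against 3393 and 3296.5 CPM at 0.1/h (log2 fold change −1.28 ± 0.33, edgeR adjusted p = 0.024), whereas its paralog TDH2 had 939 and 942 CPM at 0.2/h, against 534 and 515 CPM at 0.1/h (log2 fold change 0.84 ± 0.18, edgeR adjusted p = 0.0076). ENO1, enolase, had 2157 and 1302 CPM at 0.2/h, against 3836 and 3750.0 CPM at 0.1/h (log2 fold change −1.13 ± 0.23, edgeR adjusted p = 0.0068), and its paralog ENO2 had 2966.0 and 3225 CPM at 0.2/h, against 1833 and 1822 CPM at 0.1/h (log2 fold change 0.76 ± 0.13, edgeR adjusted p = 0.0035). Reads shared by such close copies may have been split between them. In TDH1 and ENO1 replicate 2 at 0.2/h lay well below replicate 1. GPM1, phosphoglycerate mutase and the member with the highest FPKM at 0.2/h, had 7033 and 6228 CPM at 0.2/h, against 7055 and 6858.0 CPM at 0.1/h (edgeR adjusted p = 0.79). Of 16 hexose transporter genes, 2 were called higher (12.5%) and 2 lower (12.5%), against 13.5% and 13.3% of all genes, and of 19 genes of hexose kinases and glucose signaling 1 was higher and 5 lower. HXT4, a high-affinity transporter, had 1067 and 966 CPM at 0.2/h, against 666 and 639.7 CPM at 0.1/h (log2 fold change 0.64 ± 0.15, edgeR adjusted p = 0.012). HXT2, another with the highest FPKM of the list at 0.2/h, had 1988 and 1632 CPM at 0.2/h, against 1358 and 1204 CPM at 0.1/h (log2 fold change 0.50 ± 0.14, edgeR adjusted p = 0.027). HXT5, a transporter known from slow growth and starvation, had 211 and 202 CPM at 0.2/h, against 677 and 625.5 CPM at 0.1/h (log2 fold change −1.66 ± 0.29, edgeR adjusted p = 0.0078). HXK2, the hexokinase of glucose-rich growth, had 675 and 676 CPM at 0.2/h, against 452 and 415 CPM at 0.1/h (log2 fold change 0.64 ± 0.13, edgeR adjusted p = 0.0065). NRG1, a repressor of glucose-repressed genes, had 178.0 and 160.4 CPM at 0.2/h, against 266 and 272 CPM at 0.1/h (log2 fold change −0.67 ± 0.078, edgeR adjusted p = 0.00034). TDH1 was not called in a fit of only the 4 MH34 libraries. TDH1 was not called without replicate 2 at 0.2/h or without replicate 1 or 2 at 0.1/h (edgeR adjusted p = 0.09 to 0.1). TDH2 and HXT4 were not called without replicate 1 or 2 at 0.1/h (edgeR adjusted p = 0.059 to 0.081). HXT2 was not called without replicate 1 at 0.2/h or without replicate 1 or 2 at 0.1/h (edgeR adjusted p = 0.083 to 0.18). HXT5 was not called without replicate 2 at 0.2/h or without replicate 1 at 0.1/h (edgeR adjusted p = 0.051 to 0.064). HXK2 was not called without replicate 2 at 0.1/h (edgeR adjusted p = 0.064). Glycolysis genes called higher numbered 2 and 3 without replicates 1 and 2 at 0.2/h in turn, and 1 and 1 without replicates 1 and 2 at 0.1/h. Glycolysis genes called lower numbered 2 and 1 without replicates 1 and 2 at 0.2/h in turn, and 1 and 1 without replicates 1 and 2 at 0.1/h. With the libraries left out in this order, 1, 2, 0 and 0 hexose transporter genes were called higher and 4, 1, 0 and 1 lower. Among kinases and signaling genes 1, 1, 1 and 0 were called higher and 5, 1, 1 and 2 lower.

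In the branch from pyruvate to ethanol, 4 of 9 genes were called lower and 0 higher, and in ethanol and acetate use 4 of 13 were lower and 0 higher (median −0.63). The signs in ethanol and acetate use were split, with 7 genes negative and 6 positive. ADH1, the main alcohol dehydrogenase that makes ethanol, had 590.4 and 413 CPM at 0.2/h, against 1083.0 and 1075 CPM at 0.1/h (log2 fold change −1.10 ± 0.20, edgeR adjusted p = 0.0046). PDC6, a minor pyruvate decarboxylase, had 35.9 and 38.1 CPM at 0.2/h, against 105 and 113.0 CPM at 0.1/h (log2 fold change −1.56 ± 0.17, edgeR adjusted p = 0.00038). PDC1, the main one and the highest of the branch in FPKM at 0.2/h, had 4962 and 3779 CPM at 0.2/h, against 4976.0 and 5375 CPM at 0.1/h (edgeR adjusted p = 0.27). ADY2, an acetate transporter, had 23.9 and 27.99 CPM at 0.2/h, against 158 and 117 CPM at 0.1/h (log2 fold change −2.40 ± 0.70, edgeR adjusted p = 0.044). ACS2, an acetyl-CoA synthetase, had 766 and 702 CPM at 0.2/h, against 1140.3 and 1136 CPM at 0.1/h (log2 fold change −0.63 ± 0.11, edgeR adjusted p = 0.003). ALD4, the main mitochondrial aldehyde dehydrogenase and the highest in FPKM at 0.2/h of the list of ethanol and acetate use, had 1540.0 and 1277 CPM at 0.2/h, against 1358.5 and 1235 CPM at 0.1/h (edgeR adjusted p = 0.81). In the tricarboxylic acid (TCA) cycle, all 21 genes had a negative sign, with 5 called lower and 0 higher (median −0.31). ACO1, aconitase, had 2274 and 1689 CPM at 0.2/h, against 3173 and 3316 CPM at 0.1/h (log2 fold change −0.71 ± 0.17, edgeR adjusted p = 0.013), with replicate 2 the lower of the libraries at 0.2/h. IDH1, a subunit of isocitrate dehydrogenase, had 894 and 799 CPM at 0.2/h, against 1145 and 1184 CPM at 0.1/h (log2 fold change −0.46 ± 0.11, edgeR adjusted p = 0.011). In the respiratory chain and ATP synthase, 37 of 39 genes had a negative sign, and 5 were called lower and 1 higher (median −0.22). Over all genes 13.3% were called lower. The respiratory genes held 3.25 and 2.75% of the counts at 0.2/h, against 3.31 and 3.28% at 0.1/h, and only replicate 2 at 0.2/h lay clearly below the other libraries. NDE2, an external NADH dehydrogenase, had 78.7 and 47.8 CPM at 0.2/h, against 195 and 173.0 CPM at 0.1/h (log2 fold change −1.54 ± 0.46, edgeR adjusted p = 0.046). COX5B, the subunit of cytochrome oxidase used at low oxygen, was the member called higher, with 46.95 and 44.5 CPM at 0.2/h, against 35.6 and 32.6 CPM at 0.1/h (log2 fold change 0.42 ± 0.13, edgeR adjusted p = 0.039). ADY2, NDE2 and COX5B were not called without replicate 1 or 2 at 0.2/h or without replicate 1 or 2 at 0.1/h (edgeR adjusted p = 0.066 to 0.23). ACO1 and IDH1 were not called without replicate 2 at 0.2/h or without replicate 1 or 2 at 0.1/h (edgeR adjusted p = 0.064 to 0.1). The number of TCA cycle genes called lower was 11 and 0 without replicates 1 and 2 at 0.2/h in turn, and 0 and 0 without replicates 1 and 2 at 0.1/h. For respiratory genes it was 20 and 0 without replicates 1 and 2 at 0.2/h in turn, and 0 and 0 without replicates 1 and 2 at 0.1/h. For ethanol and acetate use it was 3 and 3 without replicates 1 and 2 at 0.2/h in turn, and 2 and 2 without replicates 1 and 2 at 0.1/h.

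Most stress genes had lower values at 0.2/h, and a part of them passed the test. Of 40 genes of the general stress response, 37 had a negative sign, 13 were called lower and 0 higher, and the median log2 fold change was −0.64. They held 1.04 and 0.9999% of the counts at 0.2/h, against 1.81 and 1.77% at 0.1/h. HSP26, a small heat shock protein, had 1071 and 658 CPM at 0.2/h, against 4648 and 4573 CPM at 0.1/h (log2 fold change −2.42 ± 0.49, edgeR adjusted p = 0.015). CTT1, the cytosolic catalase, had 63.5 and 61.4 CPM at 0.2/h, against 216 and 208 CPM at 0.1/h (log2 fold change −1.76 ± 0.37, edgeR adjusted p = 0.016). TFS1, an inhibitor of carboxypeptidase Y, had 287 and 190.1 CPM at 0.2/h, against 535 and 555.5 CPM at 0.1/h, with a log2 fold change of −1.19 ± 0.23. For these genes both libraries at 0.2/h were below both at 0.1/h, as for every gene called lower. A fit without the 4 libraries of AAC and B184 at 0.1/h, chosen after these were seen to stand apart, called 29 stress genes lower. That fit called more genes in general, 2185 of 6044 against 1619 in the main fit. Its calls also rose in other lists, such as ribosome biogenesis with 106 genes higher against 51. The letters AGGGG, the stress response element, were in 32 of 40 windows (80%), against 2032 of 5706 (35.6%), on either strand. In glycogen metabolism 14 of 15 genes had a negative sign, with 3 called lower and 0 higher (median −0.57), and in trehalose metabolism all 7 were negative, with 3 called lower (median −0.39). PIG2, a regulatory subunit of the phosphatase that activates glycogen synthase, had 112 and 82.5 CPM at 0.2/h, against 205 and 215 CPM at 0.1/h (log2 fold change −1.11 ± 0.14, edgeR adjusted p = 0.00068). NTH1, the neutral trehalase, had 257 and 228 CPM at 0.2/h, against 351 and 360.2 CPM at 0.1/h (log2 fold change −0.55 ± 0.13, edgeR adjusted p = 0.012). In the list of cytosolic chaperones, 3 of 21 (14.3%) were called higher and 3 (14.3%) lower, close to the 13.5% and 13.3% of all genes. HSP104, the disaggregase, had 899 and 852 CPM at 0.2/h, against 1342.0 and 1354 CPM at 0.1/h (log2 fold change −0.62 ± 0.14, edgeR adjusted p = 0.012). HSP82, Hsp90, had 1490.1 and 1464 CPM at 0.2/h, against 2147.0 and 2092 CPM at 0.1/h (log2 fold change −0.52 ± 0.12, edgeR adjusted p = 0.013). SSB1, the chaperone that sits on the ribosome, had 885 and 901 CPM at 0.2/h, against 591.5 and 648.5 CPM at 0.1/h (log2 fold change 0.53 ± 0.12, edgeR adjusted p = 0.012). HSP26, NTH1, HSP104, HSP82 and SSB1 were not called without replicate 2 at 0.2/h or without replicate 1 or 2 at 0.1/h (edgeR adjusted p = 0.051 to 0.11). CTT1 was not called without replicate 1 or 2 at 0.2/h or without replicate 1 or 2 at 0.1/h (edgeR adjusted p = 0.058 to 0.096). TFS1 was not called without replicate 1 or 2 at 0.1/h (edgeR adjusted p = 0.051). Stress genes called lower numbered 6 and 3 without replicates 1 and 2 at 0.2/h in turn, and 1 and 1 without replicates 1 and 2 at 0.1/h. In glycogen metabolism it was 4 and 2 without replicates 1 and 2 at 0.2/h in turn, and 2 and 2 without replicates 1 and 2 at 0.1/h. In trehalose metabolism it was 2 and 0 without replicates 1 and 2 at 0.2/h in turn, and 0 and 0 without replicates 1 and 2 at 0.1/h. Chaperone genes called higher numbered 1, 0, 0 and 0 with the libraries left out in this order, and those called lower 3, 0, 0 and 0.

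Genes of breakdown in the vacuole were called lower at 0.2/h, whereas no proteasome gene was called. In autophagy, 12 of 22 genes (54.5%) were called lower and 0 higher (median −0.31). Among vacuolar proteases, 4 of 9 (44.4%) were called lower and 0 higher (median −0.35). Over all genes 13.3% were called lower and 13.5% higher. ATG39, the receptor for autophagy of the nuclear envelope, had 122 and 88.3 CPM at 0.2/h, against 247 and 235 CPM at 0.1/h (log2 fold change −1.20 ± 0.23, edgeR adjusted p = 0.0098). ATG33, needed for autophagy of mitochondria, had 130.3 and 102.0 CPM at 0.2/h, against 200.1 and 212 CPM at 0.1/h (log2 fold change −0.83 ± 0.15, edgeR adjusted p = 0.0044). ATG8, the protein that lines the autophagosome and the highest of the list in FPKM at 0.2/h, had 74.7 and 85.8 CPM at 0.2/h, against 129 and 115 CPM at 0.1/h (log2 fold change −0.61 ± 0.14, edgeR adjusted p = 0.011). PRB1, vacuolar proteinase B, had 1231 and 1328 CPM at 0.2/h, against 2296 and 2435 CPM at 0.1/h (log2 fold change −0.89 ± 0.14, edgeR adjusted p = 0.0017). PEP4, proteinase A, had 1308.0 and 1228.5 CPM at 0.2/h, against 1672 and 1651 CPM at 0.1/h (log2 fold change −0.39 ± 0.11, edgeR adjusted p = 0.023). Of 33 proteasome genes, 0 were called in either direction, the median was 0.001 and the range was −0.12 to 0.13. The letters GGTGGCAAA, bound by the proteasome regulator Rpn4, were in 21 of the 33 windows (63.6%), against 87 of 5706 (1.52%), on either strand. In oxidative stress defense, 9 of 27 genes (33.3%) were called lower and 2 (7.41%) higher (median −0.22), the second share being under the 13.5% of all genes. GSH1, the first enzyme of glutathione synthesis, which uses the cysteine of the sulfur path, had 106 and 93.9 CPM at 0.2/h, against 218 and 228 CPM at 0.1/h (log2 fold change −1.16 ± 0.08, edgeR adjusted p = 7.7e-06). TSA1, the main peroxiredoxin and the highest of the list in FPKM at 0.2/h, had 2611 and 1832 CPM at 0.2/h, against 3134 and 3229 CPM at 0.1/h (log2 fold change −0.52 ± 0.16, edgeR adjusted p = 0.035), and a fit of only the 4 MH34 libraries did not call it. ATG39 was not called without replicate 2 at 0.2/h or without replicate 1 at 0.1/h (edgeR adjusted p = 0.061 to 0.065). ATG8 was not called without replicate 1 at 0.2/h or without replicate 1 at 0.1/h (edgeR adjusted p = 0.053 to 0.087). PEP4 and TSA1 were not called without replicate 2 at 0.2/h or without replicate 1 or 2 at 0.1/h (edgeR adjusted p = 0.1 to 0.23). Autophagy genes called lower numbered 6 and 4 without replicates 1 and 2 at 0.2/h in turn, and 2 and 4 without replicates 1 and 2 at 0.1/h. Among vacuolar proteases it was 4 and 1 without replicates 1 and 2 at 0.2/h in turn, and 1 and 2 without replicates 1 and 2 at 0.1/h. In oxidative defense it was 8 and 3 without replicates 1 and 2 at 0.2/h in turn, and 3 and 3 without replicates 1 and 2 at 0.1/h.

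Called genes for phosphate were higher, and called genes for zinc and iron uptake were lower at 0.2/h. Of 18 genes for phosphate and zinc uptake, 7 (38.9%) were called higher, all of them for phosphate. Another 4 (22.2%) were called lower, all of them for zinc, and the median of the list was 0.38. Over all genes 13.5% were called higher and 13.3% lower. Besides PHO84, the secreted acid phosphatase gene PHO5 had 149 and 103 CPM at 0.2/h, against 41.6 and 44.5 CPM at 0.1/h (log2 fold change 1.55 ± 0.31, edgeR adjusted p = 0.013). VTC3, a subunit of the complex that stores polyphosphate, had 298 and 289.6 CPM at 0.2/h, against 169 and 164 CPM at 0.1/h (log2 fold change 0.82 ± 0.14, edgeR adjusted p = 0.0035). The zinc transporter genes moved the other way. ZRT2 had 363.0 and 228 CPM at 0.2/h, against 701 and 689.8 CPM at 0.1/h (log2 fold change −1.24 ± 0.20, edgeR adjusted p = 0.0032). ZRT1, the high-affinity transporter with the highest FPKM of the list at 0.2/h, had 7542 and 5106 CPM at 0.2/h, against 10405 and 10352.5 CPM at 0.1/h (log2 fold change −0.71 ± 0.17, edgeR adjusted p = 0.014). In both, replicate 2 at 0.2/h was the lowest library. Of 22 genes of iron uptake and use, 21 had a negative sign, 6 (27.3%) were called lower and 0 higher, and the median was −0.55. FRE4, a ferric reductase, had 4.73 and 4.19 CPM at 0.2/h, against 12.5 and 12.01 CPM at 0.1/h (log2 fold change −1.46 ± 0.19, edgeR adjusted p = 0.00058). FRE2, another, had 14.2 and 14.9 CPM at 0.2/h, against 27.9 and 27.3 CPM at 0.1/h (log2 fold change −0.92 ± 0.17, edgeR adjusted p = 0.0036). FIT2, a mannoprotein that retains siderophore iron and is highest in FPKM at 0.2/h, had 146 and 154 CPM at 0.2/h, against 399.6 and 400.3 CPM at 0.1/h (log2 fold change −1.42 ± 0.57, edgeR adjusted p = 0.11). In thiamine synthesis and uptake, 7 of 22 genes (31.8%) were called lower and 1 (4.55%) higher (median −0.28). THI4, which makes the thiazole part of thiamine, had 33.1 and 33.6 CPM at 0.2/h, against 62.2 and 63.1 CPM at 0.1/h (log2 fold change −0.91 ± 0.10, edgeR adjusted p = 0.00031). PHO5 was not called without replicate 1 or 2 at 0.1/h (edgeR adjusted p = 0.067 to 0.082). ZRT1 was not called without replicate 2 at 0.2/h or without replicate 1 or 2 at 0.1/h (edgeR adjusted p = 0.075 to 0.083). Genes for phosphate and zinc called higher numbered 4 and 4 without replicates 1 and 2 at 0.2/h in turn, and 2 and 2 without replicates 1 and 2 at 0.1/h. Those called lower numbered 4, 2, 1 and 1 in the same order. Iron genes called lower numbered 3 and 3 without replicates 1 and 2 at 0.2/h in turn, and 3 and 3 without replicates 1 and 2 at 0.1/h. Thiamine genes called lower numbered 4 and 2 without replicates 1 and 2 at 0.2/h in turn, and 1 and 1 without replicates 1 and 2 at 0.1/h.

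Amino acid synthesis was mixed, with 13 of 66 genes called higher and 15 lower. The largest falls were in lysine and arginine synthesis. LYS20, homocitrate synthase, the entry to lysine, had 232 and 152.0 CPM at 0.2/h, against 408 and 413 CPM at 0.1/h (log2 fold change −1.10 ± 0.15, edgeR adjusted p = 0.0013). LYS9, a later enzyme of the same path, had 286 and 181 CPM at 0.2/h, against 497.0 and 495 CPM at 0.1/h (log2 fold change −1.09 ± 0.20, edgeR adjusted p = 0.0055). ARG56, which encodes enzymes of arginine synthesis, had 249 and 179 CPM at 0.2/h, against 400.4 and 427 CPM at 0.1/h (log2 fold change −0.95 ± 0.13, edgeR adjusted p = 0.00076). SER33, a phosphoglycerate dehydrogenase of serine synthesis, had 134.5 and 124.0 CPM at 0.2/h, against 214.5 and 226.5 CPM at 0.1/h (log2 fold change −0.77 ± 0.079, edgeR adjusted p = 0.00014). GCN4, the activator of amino acid synthesis genes and the highest of the list in FPKM at 0.2/h, had 1672 and 1356 CPM at 0.2/h, against 1926 and 1919 CPM at 0.1/h (edgeR adjusted p = 0.055). Among amino acid and nitrogen permeases, 5 of 28 were called higher and 7 lower. GNP1, a glutamine permease with the highest FPKM of that list at 0.2/h, had 614 and 650.3 CPM at 0.2/h, against 477 and 449 CPM at 0.1/h (log2 fold change 0.45 ± 0.10, edgeR adjusted p = 0.0082). The oligopeptide transporter gene OPT1 had 22.7 and 17.1 CPM at 0.2/h, against 59.5 and 58.5 CPM at 0.1/h (log2 fold change −1.57 ± 0.15, edgeR adjusted p = 8.7e-05). MEP2, an ammonium permease, had 40.6 and 37.5 CPM at 0.2/h, against 72.9 and 75.2 CPM at 0.1/h (log2 fold change −0.93 ± 0.11, edgeR adjusted p = 0.00043). In nitrogen metabolism 3 of 20 genes were called higher and 4 lower, with GCV1, of glycine cleavage, at 459 and 404 CPM at 0.2/h, against 668 and 853 CPM at 0.1/h (log2 fold change −0.82 ± 0.13, edgeR adjusted p = 0.0021). In nucleotide synthesis 2 of 30 were higher and 3 lower. URA7, a CTP synthase, had 121 and 124 CPM at 0.2/h, against 80.8 and 82.9 CPM at 0.1/h (log2 fold change 0.58 ± 0.14, edgeR adjusted p = 0.014). ADE17, of purine synthesis, had 1045.0 and 1021 CPM at 0.2/h, against 1194 and 1455 CPM at 0.1/h (log2 fold change −0.36 ± 0.11, edgeR adjusted p = 0.029). With library totals ADE17 was not called, nor was it in a fit of only the 4 MH34 libraries. GNP1 and URA7 were not called without replicate 2 at 0.2/h or without replicate 1 or 2 at 0.1/h (edgeR adjusted p = 0.05 to 0.092). ADE17 was not called without replicate 1 or 2 at 0.2/h or without replicate 2 at 0.1/h (edgeR adjusted p = 0.065 to 0.26). Amino acid synthesis genes called higher numbered 10 and 4 without replicates 1 and 2 at 0.2/h in turn, and 2 and 4 without replicates 1 and 2 at 0.1/h. Amino acid synthesis genes called lower numbered 18 and 8 without replicates 1 and 2 at 0.2/h in turn, and 9 and 8 without replicates 1 and 2 at 0.1/h. With the libraries left out in this order, 4, 2, 2 and 1 permease genes were called higher and 7, 5, 5 and 5 lower. In nitrogen metabolism 4, 2, 1 and 1 were called higher and 4, 2, 3 and 2 lower, and in nucleotide synthesis 2, 1, 0 and 1 were higher and 3, 0, 1 and 0 lower. The shares called in nucleotide synthesis (6.67% higher and 10% lower) were under those of all genes (13.5% and 13.3%), and in nitrogen metabolism they were 15% and 20%.

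Within lipid synthesis, the genes called lower were those that make or desaturate fatty acids, and those called higher act in phospholipid synthesis and in elongation to very long chains. The list had 10 of 27 (37%) called higher and 4 (14.8%) lower (median 0.27). Over all genes these shares were 13.5% and 13.3%, so the share called lower was near that of all genes. The 4 that were lower were OLE1, ACC1, FAS1 and FAS2, each of which is described. OLE1, the fatty acid desaturase, had 1101 and 1174 CPM at 0.2/h, against 2331 and 2459 CPM at 0.1/h (log2 fold change −1.07 ± 0.09, edgeR adjusted p = 3.2e-05). ACC1, acetyl-CoA carboxylase, the committed step, had 884 and 894 CPM at 0.2/h, against 1495 and 1428.0 CPM at 0.1/h (log2 fold change −0.72 ± 0.085, edgeR adjusted p = 0.00038). FAS1, a subunit of fatty acid synthase, had 939 and 908 CPM at 0.2/h, against 1394 and 1382 CPM at 0.1/h (log2 fold change −0.59 ± 0.084, edgeR adjusted p = 0.0011). FAS2, the other subunit, had 868 and 999 CPM at 0.2/h, against 1183 and 1165.0 CPM at 0.1/h (log2 fold change −0.33 ± 0.10, edgeR adjusted p = 0.031). ACC1, FAS1, FAS2 and OPI3 below were named after their values were seen. Among those that rose, ITR1, the inositol transporter, had 3053 and 4599.9 CPM at 0.2/h, against 2064 and 1743 CPM at 0.1/h (log2 fold change 1.01 ± 0.20, edgeR adjusted p = 0.0054). CDS1, which makes CDP-diacylglycerol, had 339 and 443 CPM at 0.2/h, against 223 and 203 CPM at 0.1/h (log2 fold change 0.88 ± 0.16, edgeR adjusted p = 0.0042). OPI3, which methylates phosphatidylethanolamine on the way to phosphatidylcholine, had 886 and 1298.5 CPM at 0.2/h, against 668 and 545 CPM at 0.1/h (log2 fold change 0.85 ± 0.18, edgeR adjusted p = 0.0077). ELO3, an elongase of very long chain fatty acids, had 288 and 405.0 CPM at 0.2/h, against 172 and 189 CPM at 0.1/h (log2 fold change 0.94 ± 0.19, edgeR adjusted p = 0.0093). Replicate 2 was the higher of the libraries at 0.2/h in these 4. Ergosterol synthesis had 0 of 25 genes called higher and 3 lower (12%, against 13.3% of all genes; median −0.091), with ECM22, an activator of sterol genes, at 59.6 and 49.1 CPM at 0.2/h, against 72.3 and 67.4 CPM at 0.1/h (log2 fold change −0.36 ± 0.11, edgeR adjusted p = 0.031). DESeq2 did not call ECM22, nor did a fit with library totals, and FAS2 was not called with library totals or with only the 4 MH34 libraries. FAS2 was not called without replicate 1 at 0.2/h or without replicate 1 or 2 at 0.1/h (edgeR adjusted p = 0.12 to 0.15). ITR1 was not called without replicate 2 at 0.1/h (edgeR adjusted p = 0.06). OPI3 was not called without replicate 2 at 0.2/h or without replicate 2 at 0.1/h (edgeR adjusted p = 0.063 to 0.076). ELO3 was not called without replicate 2 at 0.2/h or without replicate 1 at 0.1/h (edgeR adjusted p = 0.055 to 0.076). ECM22 was not called without replicate 2 at 0.2/h or without replicate 1 or 2 at 0.1/h (edgeR adjusted p = 0.084 to 0.24). The number of lipid genes called higher was 12 and 5 without replicates 1 and 2 at 0.2/h in turn, and 6 and 5 without replicates 1 and 2 at 0.1/h. Ergosterol genes called lower numbered 4, 0, 0 and 0 with the libraries left out in this order, and with library totals 2 were called higher and 0 lower.

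A part of the cell cycle genes rose. Of 26 cyclins and regulators, 10 (38.5%) were called higher and 0 lower, against 13.5% and 13.3% of all genes, with a median of 0.21. CLN2, a cyclin of the entry into the cycle, had 151 and 178 CPM at 0.2/h, against 99.9 and 109 CPM at 0.1/h (log2 fold change 0.66 ± 0.10, edgeR adjusted p = 0.0012). CLB2, the main cyclin of mitosis, had 76.3 and 84.2 CPM at 0.2/h, against 50.3 and 49.7 CPM at 0.1/h (log2 fold change 0.68 ± 0.10, edgeR adjusted p = 0.0011). SWI5, the factor that activates genes at the exit from mitosis, had 174 and 178.5 CPM at 0.2/h, against 126 and 130.1 CPM at 0.1/h (log2 fold change 0.46 ± 0.083, edgeR adjusted p = 0.0037). PCL2, a cyclin of the kinase Pho85, had 78.7 and 71.2 CPM at 0.2/h, against 52.9 and 55.2 CPM at 0.1/h (log2 fold change 0.47 ± 0.083, edgeR adjusted p = 0.0033). Histone genes, transcribed as DNA is copied, had 1 of 10 (10%) called higher and 0 lower, under the 13.5% of all genes called higher. HHF2, a histone H4 gene, had 597 and 636 CPM at 0.2/h, against 489 and 518 CPM at 0.1/h (log2 fold change 0.29 ± 0.077, edgeR adjusted p = 0.019). Meiosis and sporulation genes were low in all 4 libraries, and 8 of 23 (34.8%) were called lower and 1 (4.35%) higher (median −0.16). IME1, the inducer of meiosis, had 17.8 and 13.7 CPM at 0.2/h, against 32.6 and 37.5 CPM at 0.1/h (log2 fold change −1.16 ± 0.17, edgeR adjusted p = 0.0014). ZIP1, of the synaptonemal complex, had 30.5 and 28.2 CPM at 0.2/h, against 55.3 and 56.03 CPM at 0.1/h (log2 fold change −0.92 ± 0.14, edgeR adjusted p = 0.0017). Of 22 mating genes, FIG1 was the 1 called (4.55%), against 26.8% of all genes called in either direction. HHF2 was not called without replicate 2 at 0.2/h or without replicate 1 or 2 at 0.1/h (edgeR adjusted p = 0.071 to 0.15). The number of cell cycle genes called higher was 7 and 5 without replicates 1 and 2 at 0.2/h in turn, and 5 and 5 without replicates 1 and 2 at 0.1/h. Meiosis genes called lower numbered 6 and 3 without replicates 1 and 2 at 0.2/h in turn, and 3 and 3 without replicates 1 and 2 at 0.1/h.

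At the cell surface, 6 of 33 genes (18.2%) were called higher and 11 (33.3%) lower, against 13.5% and 13.3% of all genes. PIR3, a cell wall protein, had 163 and 200 CPM at 0.2/h, against 432 and 456 CPM at 0.1/h (log2 fold change −1.29 ± 0.23, edgeR adjusted p = 0.0063). CWP2, a major mannoprotein of the wall and the highest of the list in FPKM at 0.2/h, had 3782 and 4631 CPM at 0.2/h, against 3296 and 3803 CPM at 0.1/h (edgeR adjusted p = 0.21). The largest differences between replicates at 0.2/h were also in this group. FLO11, the flocculin of invasive growth and biofilms, had 819 and 31.96 CPM at 0.2/h, against 2026 and 2677 CPM at 0.1/h, with a log2 fold change of −2.47 ± 1.06 and an edgeR adjusted p of 0.15. Outside the list, YOR387C had 577.0 and 53.9 CPM at 0.2/h, against 1834 and 1854 CPM at 0.1/h (adjusted p = 0.085), and ADH4, an alcohol dehydrogenase known to respond to zinc, had 1683.0 and 387.0 CPM at 0.2/h, against 2268 and 2070.3 CPM at 0.1/h (adjusted p = 0.21). In these 3 genes, named after their values were seen, the 2 cultures at 0.2/h disagreed by several-fold while those at 0.1/h agreed. The number called lower in the list was 10 and 8 without replicates 1 and 2 at 0.2/h in turn, and 5 and 5 without replicates 1 and 2 at 0.1/h. Those called higher numbered 4, 1, 1 and 1 in the same order.

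The comparison with the other strains asked whether the rate response of MH34 differed from that of its parent AAC and of its descendant B184. Over all genes the median absolute log2 fold change was 0.199 in MH34, against 0.477 in B184 and 0.482 in AAC, where 4026 genes (66.6%) were called in B184 and 4121 genes (68.2%) in AAC. The difference of the responses was tested as an interaction in the same edgeR fit. Between MH34 and AAC it was called for 3212 genes (53.1%), of which 1607 were higher in MH34 (26.6%) and 1605 lower (26.6%). Between MH34 and B184 it was called for 3134 genes (51.9%), of which 1455 were higher in MH34 (24.1%) and 1679 lower (27.8%). The libraries of AAC and B184 at 0.1/h, 4 in all, which stand apart on the first principal component, enter these differences. The rate responses of AAC and B184 also varied with gene length. For the 236 genes with a coding length of up to 300 bases, the median log2 fold change was −0.048 in MH34, against 0.51 in B184 and 0.45 in AAC. For the 500 genes over 3000 bases it was −0.006 in MH34, against −0.34 in B184 and −0.30 in AAC. Which libraries carry this dependence on length, and its part in the differences between strains, were not tested. Gene length was also not separated from gene function.

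The difference was called for most single genes of the cytosolic ribosomal proteins, and lists as such were not tested. Their median log2 fold change was 0.40 in MH34, against 1.66 in B184 and 1.51 in AAC, and the difference was called lower in MH34 for 118 of 137 genes against AAC and for 122 against B184, and higher for 1 gene each. Ribosome biogenesis genes had medians of 0.27 in MH34, 0.29 in B184 and 0.23 in AAC. For histones the medians were −0.006 in MH34, 1.03 in B184 and 1.01 in AAC, and for the proteasome 0.001 in MH34, 0.44 in B184 and 0.37 in AAC. In the respiratory chain they were −0.22 in MH34, 0.49 in B184 and 0.47 in AAC. The ribosomal protein genes at 0.2/h held 9.27% and 9.79% of counts in MH34, 9.39% and 9.41% in B184 and 8.21% and 9.05% in AAC. At 0.1/h they were 6.72% and 6.99% in MH34, against 3.52% and 3.44% in B184 and 4.003% and 3.13% in AAC. In the study's folding subsystem, the median was 0.72 in MH34, against 0.21 in B184 and 0.33 in AAC, and the difference was called higher in MH34 for 6 of 10 genes against B184 and for 2 against AAC, and lower for 0 in both. The 20% against AAC was below the 26.6% of all genes. ER glycosylation had more genes with a lower difference. There the difference was called higher in MH34 for 7 of 30 genes and lower for 12 against AAC, and higher for 2 and lower for 13 against B184. More genes were also lower than higher in translocation, with 3 higher and 6 lower against AAC and 4 higher and 7 lower against B184 of 17 genes. In Golgi processing 2 were higher and 5 lower against AAC, and 3 higher and 4 lower against B184, of 11 genes. In trafficking 9 were higher and 13 lower against AAC, and 8 higher and 13 lower against B184, of 32 genes. GPI anchoring had 6 higher and 8 lower against AAC, and 5 higher and 8 lower against B184, of 20 genes. Degradation and sorting leaned the other way. ER-associated degradation had 7 higher and 1 lower against AAC, and 8 higher and 0 lower against B184, of 17 genes. Sorting had 8 higher and 3 lower against AAC, and 11 higher and 3 lower against B184, of 25 genes. Over all genes 26.6% were higher and 26.6% lower against AAC, and 24.1% higher and 27.8% lower against B184.

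**Figure D4:**
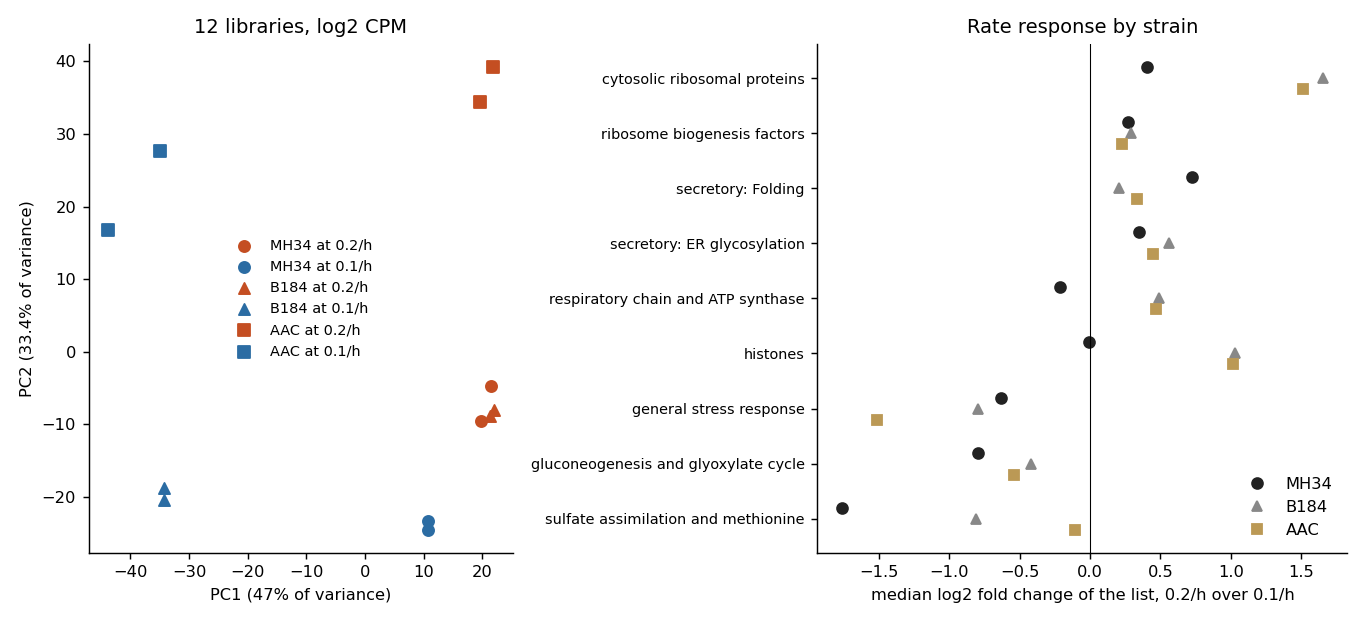
Left, the 12 libraries on the first 2 principal components of log2 CPM, with 1 point per library, where the 4 libraries of B184 and AAC at 0.1/h lie below −34 on the first component and the other 8 above 10. Right, the median log2 fold change of 0.2/h over 0.1/h in 9 gene lists for MH34 (circles), B184 (triangles) and AAC (squares), where that of the ribosomal proteins is 0.40 in MH34 and above 1.5 in B184 and AAC.

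Genes of gluconeogenesis and the glyoxylate cycle were called lower in all 3 strains, for 12 of 20 genes in MH34 (median −0.80), against 10 in B184 (median −0.42) and 14 in AAC (median −0.54). These counts have unlike backgrounds, since 26.8% of all genes were called in either direction in MH34, against 66.6% in B184 and 68.2% in AAC. PCK1, ICL1 and SUL2, described next, are among the 5 largest differences between MH34 and AAC in their direction, and were chosen for that. For PCK1 the log2 fold change was −4.53 ± 0.20 in MH34, against −0.20 ± 0.23 in AAC, a difference of −4.33 ± 0.31 (edgeR adjusted p = 6e-06). PCK1 had 2305 and 2568 CPM in MH34 at 0.1/h, against 22.9 and 37.7 CPM in AAC at 0.1/h, where no ethanol addition is named. ICL1 fell in MH34 with a difference of −3.58 ± 0.33 (edgeR adjusted p = 3.1e-05), and had 2476.0 and 2539 CPM in MH34 at 0.1/h, against 72.2 and 132 CPM in AAC at 0.1/h. SUL2 differed by −3.50 ± 0.27 (edgeR adjusted p = 5.9e-06). In B184, whose cultures at 0.1/h also received ethanol, the log2 fold changes were −2.50 ± 0.20 for PCK1, −2.14 ± 0.23 for ICL1 and −1.32 ± 0.21 for SUL2. ADH2, the alcohol dehydrogenase that consumes ethanol, was the largest difference in the other direction. It had 9.71 and 33.1 CPM at 0.2/h, against 19.4 and 16.2 CPM at 0.1/h in MH34. In AAC it had 13.04 and 3.71 CPM at 0.2/h, against 393 and 891 CPM at 0.1/h. The difference of log2 fold changes was 6.55 ± 1.04 (edgeR adjusted p = 0.0014). HXT3, a low-affinity hexose transporter, had 1241.5 and 1520.0 CPM at 0.2/h, against 1253.0 and 1128 CPM at 0.1/h in MH34. In AAC it had 614 and 759 CPM at 0.2/h, against 54.5 and 29.0 CPM at 0.1/h. The log2 fold changes differed by −3.83 ± 0.33 (edgeR adjusted p = 1.6e-05). Against B184, the largest differences included ribosomal protein genes, with RPL42A at −2.63 ± 0.12 (edgeR adjusted p = 4.1e-07) and RPS21A at −2.59 ± 0.17 (edgeR adjusted p = 2.3e-06). MGR1, a subunit of a mitochondrial protease complex, differed by 2.13 ± 0.15 (edgeR adjusted p = 2.5e-06).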

How the data were processed

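RNA from 2 chemostat cultures of each of 3 strains at each of 2 dilution rates was sequenced, which gave 12 libraries in 6 groups. The authors prepared stranded mRNA libraries and sequenced paired reads, and the methods of the study name the nf-core pipeline and the Ensembl annotation of R64, while the submitters' processing notes name TopHat2 2.0.12, Cufflinks 2.2.1 and Subread 1.4.6. The authors deposited raw counts per gene, without normalization, in 1 table of 7126 genes, and every column of it was used. Neither the strand setting nor the handling of reads with more than 1 matching gene is given in the sources used here, which makes the counts uncertain for genes that overlap or have a close copy. Of the gene IDs, 6169 matched the RefSeq table of R64, and the 957 others held 0.129% to 0.148% of the counts of a library.

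Counts were scaled by TMM and fitted in edgeR 4.0.16 (R 4.3.3) with the robust quasi-likelihood test, in 1 model of the 6 groups, after low counts had been removed with filterByExpr. Benjamini-Hochberg adjustment ran over all 6044 genes tested, and the threshold was 0.05. Errors of log2 fold changes are standard errors (SE), with a median of 0.1 at this depth. Lists are described by counts and medians beside all genes, with no test of a list. FPKM was computed from counts, exon length and library totals. Summaries, motif searches in 500 bases upstream of start codons, and figures were made with pandas 2.3.3, numpy 2.4.6 and matplotlib 3.10.9 under Python 3.11.15. The cultures are biological duplicates per the labels. On simulated counts for 6013 genes, 180 of 200 changed genes were found and 9 unchanged genes were called. At an absolute log2 fold change of 0.585, 56 of 71 were found. Real MH34 replicates were unequally alike, with r = 0.99 for the faster cultures and r = 0.997 for the slower. Whether the simulated numbers hold under such unequal spread was not tested, so they give no error rate for the calls in MH34.

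Named are the 10 largest rises and falls among called genes that had a symbol, a mean count of 50 or more in the MH34 libraries and no overlap of the groups. Also named are up to 4 called members with the largest changes and the member with the highest FPKM in each of 41 lists and the 8 secretory subsystems of the study, the 5 largest differences from each other strain in each direction, the genes that the study's text names (ROT2, OST1, ALG12, ALG11, PDI1 and CWH41), and TPI1. Genes outside this rule are marked in the text. The members and lists were chosen with earlier results of these data known. Alternatives were DESeq2 1.42.0 and its size factors, library totals, no filter, at least 10 counts in every library, a minimum absolute log2 fold change of 1, a replicate block, only the 4 MH34 libraries, each library left out, and a fit without the 4 libraries of AAC and B184 at 0.1/h, which was added after the data were seen.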

Additional observations from a re-analysis of the deposited data

Results flagged for a closer look

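The results in this section are differences of the rate response between strains that were called by the edgeR interaction test, with no explanation weighed. Against AAC, 3212 genes were called, and against B184, 3134 genes. Both counts rest on the cultures of AAC and B184 at 0.1/h, which stand apart from the other libraries.

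The 5 largest differences from AAC in each direction, as log2 fold change of MH34 minus that of AAC, were 6.55 for ADH2, an alcohol dehydrogenase that consumes ethanol, 4.59 for CTA1, the peroxisomal catalase, 4.53 for SPG4, a gene of stationary phase, 4.30 for YIG1 and 4.30 for RGI2, and on the other side −4.33 for PCK1, −3.83 for the hexose transporter gene HXT3, −3.58 for ICL1, −3.52 for the small nucleolar RNA SNR39 and −3.50 for SUL2. CTA1, SPG4, YIG1 and RGI2 were not called in MH34 itself, and fell in AAC, with log2 fold changes of −4.88 for CTA1 and −5.85 for SPG4 in AAC.

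From B184 the largest differences were 2.57 for TPI1, 2.47 for the small nucleolar RNA SNR83, 2.13 for MGR1, 1.89 for VRP1, which encodes the actin-associated protein verprolin, and 1.87 for LCL1, and on the other side −3.75 for SNR39, −2.69 for MGP12, −2.63 for RPL42A, −2.60 for RPL9B and −2.59 for RPS21A. SNR39 lies inside the ribosomal protein gene RPL7A, and its reads are uncertain.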

How the results depend on the processing

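The number of genes called in MH34 was 1411 to 1914 with DESeq2, other scalings or filters and only the 4 MH34 libraries, and 2185 without the 4 libraries of AAC and B184 at 0.1/h, of which 1596 were among the 1619. It was 178 when a change of 1 or more on the log2 scale was also required, and 433 to 1393 with 1 MH34 library left out. The differences of the rate response numbered 958 against AAC and 845 against B184 under that same requirement, and 2685 to 3384 against AAC and 2578 to 2944 against B184 with 1 library left out. A replicate block gave 911 calls in MH34, of which 893 were among the 1619, and 2878 and 2796 for the differences from AAC and B184. The replicate numbers do not pair the MH34 samples, whose same-numbered libraries had deviations from the group means that correlated with r = 0.029 across genes, so the block result is given here only.

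No named gene changed direction under any setting where it was called. Of 280 named genes, 268 kept their side of the threshold under the DESeq2 test, 264 with library totals, and 159 to 236 with 1 MH34 library left out. The median log2 fold change of the list of cytosolic chaperones was −0.008 without replicate 2 at 0.2/h, 0.079 without replicate 1 at 0.2/h and 0.041 with all libraries, and no other list median with a value beyond its spread turned its sign. With library totals, 21 of 49 list medians moved by more than the spread between replicates. With 2 cultures in a group, the residual spread of a gene is borrowed largely from other genes and groups, and small changes of single genes are the least certain.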
